A study of Mus musculus with 14 samples.

Results

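The regions described here are those where BCOR and Otx2 both had a peak at embryonic day 14 (E14) and where BCOR had no peak at any later stage. They number 1119 of 39193 regions in all. They come from CUT&RUN, which cuts chromatin with a nuclease tethered to an antibody and sequences the short fragments that come free. The retinas were from WT mice of strain CD1. Each factor was profiled in 1 library at E14, in 2 at the day of birth (P0) and in 2 of adult retina. The sample labels say Otx2 where the series text has Otx2/Crx, and which antibody was used is not given in the sources used here. How many retinas a library held, and whether replicates came from separate animals, are not given in the sources used here. Peak lists hold no expression, so the labelled tissue could not be checked against marker genes. Whole retina was labelled only as retinal cells, so in these libraries fewer cells with a bound region and less binding per cell cannot be told apart.

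BCOR is a corepressor of transcription that does not read specific DNA sequences itself and is brought to DNA by other proteins, alone or within a Polycomb complex of the variant kind. The homeobox factor Otx2 binds DNA directly and is needed for the fate of photoreceptor precursors in the retina, and it continues to be made in photoreceptor and bipolar cells. In the embryonic mouse retina most cells are still dividing progenitors, around birth rod precursors are being born in large numbers, and the adult retina holds only differentiated cells.

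Overlapping peaks of all 10 lists on chromosomes 1 to 19 were joined where they shared at least 1 base, which gave 39193 regions. Of these, 10628 held a BCOR peak of E14 and 8382 held an Otx2 peak of E14. Both factors had an E14 peak in 5574 regions. The members are the 1119 of these in which none of the 4 later BCOR lists had a peak, which is 20.1% of the regions with both E14 peaks and 13.4% of all Otx2 regions of E14. Their number depends on 1 library, since 2277 regions would be members without the second P0 BCOR library. The E14 lists and the later BCOR lists chose the members, so values from those lists are given as a description. The presence of a peak in the 4 Otx2 lists of P0 and the adult was not used, and the comparisons rest on it. Those lists entered the joining of peaks, and through it 17 members were formed from E14 peaks that did not touch.

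The members are compared with 3 other classes of regions. The closest is the 4455 regions with both E14 peaks and a peak of at least 1 later BCOR list, called retained BCOR regions below. Another is the 2259 regions with Otx2 at E14 and no BCOR peak in any list, and the last is the 2749 regions with BCOR at E14 alone and no Otx2 peak at E14. The lists differ in more than stage. On these chromosomes the E14 lists held 10736 BCOR and 8497 Otx2 peaks. The P0 lists held 5292 and 8784 BCOR peaks and 21759 and 24884 Otx2 peaks, and the adult lists 1339 and 2445 BCOR peaks and 7183 and 14590 Otx2 peaks. The largest q-value kept was 0.0999 and 0.0996 in the E14 lists, 0.0473 to 0.0496 at P0, 0.248 in both adult BCOR lists, and 0.0466 and 0.0489 in the adult Otx2 lists. Read depth is unknown, so stage and the depth or settings of peak calling cannot be told apart, and shares are compared between classes within the same library.

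At E14 the members had lower median folds than the retained BCOR regions in the same lists. Fold here is the authors' enrichment of a peak over its background. The BCOR fold of the members ran from 2.08 to 46.4 with a median of 5.16 and quartiles of 4.41 and 6.15, against a median of 6.81 and quartiles of 5.49 and 8.50 in retained BCOR regions. The Otx2 fold of the members ran from 2.15 to 50.1 with a median of 5.71 and quartiles of 4.74 and 7.29, against a median of 6.86 and quartiles of 5.36 and 8.87 in retained BCOR regions. The distributions overlapped over most of their range. Within its list, the median member stood at the 43.8th percentile of BCOR folds and the 45.9th of Otx2 folds, against 73.6 and 64.1 for retained BCOR regions. Few members had a q-value above 0.05 at E14, 8 of the 1119 for BCOR and 4 of the 1119 for Otx2.

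When the regions with both E14 peaks were ranked by BCOR fold, and split into 10 bins of about equal size, members made up 44.4% of the weakest bin, 19.9% of the fifth bin and 3.96% of the ninth. In the strongest bin, with folds from 10.0 to 46.4, the share was higher again at 9.50%. Ranked by Otx2 fold the share was 32.3% in the weakest bin, 20.6% in the fifth, and 12.7%, 10.6% and 12.7% in the eighth, ninth and strongest. Members were thus commonest among weak regions on both scales. The higher share in the strongest bin than in the 2 before it was seen on the BCOR scale, where the eighth bin held 6.45%, and not on the Otx2 scale.

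**Figure D1:**
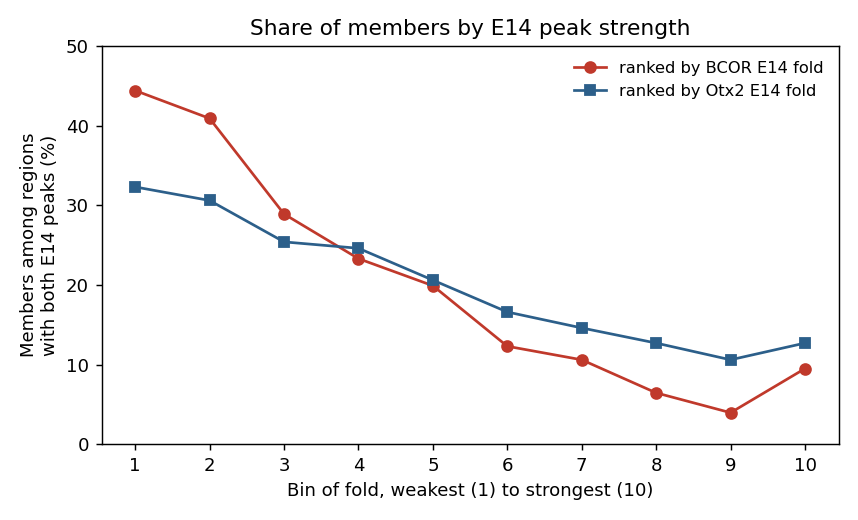
Share of members (%) among the 5574 regions with both E14 peaks, in 10 bins of BCOR fold (circles) and of Otx2 fold (squares) from weakest to strongest. The share goes down to 3.96% in the ninth bin of BCOR fold and is 9.50% in the strongest; no error is drawn because the folds come from the lists that chose the members.

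In most members the 2 E14 peaks lay on the same short stretch of DNA. Members were 205 to 2370 bp wide with a median of 579 bp, against 784 bp in retained BCOR regions. These widths span all joined peaks, and retained BCOR regions hold a later BCOR peak by rule, which can widen them. The E14 peaks alone had median widths of 358 bp for BCOR and 295 bp for Otx2 in members. In retained BCOR regions these were 524 and 360 bp. Of the members, 1098 (98.1%) held a single BCOR and a single Otx2 peak of E14. The BCOR and Otx2 peaks overlapped by at least 50% of the shorter one in 1037 members (92.7%), with a median of 239 shared bases against 324 in retained BCOR regions. The 17 members joined through a later Otx2 peak were 1.52% of all. The Otx2 peak lay wholly inside the BCOR peak in 376 members (33.6%), and the BCOR peak inside the Otx2 peak in 183 (16.4%). The summits of the 2 factors were a median of 67 bp apart in members, with quartiles of 26 and 146 bp, and 56 bp apart in retained BCOR regions. They lay within 100 bp of each other in 62.6% of members and 68.9% of retained BCOR regions.

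Otx2 itself was still called at P0 in most members. A peak was present in 732 of the 1119 members (65.4%, 95% Wilson interval 62.6 to 68.1) in the first P0 library and in 769 (68.7%, 65.9 to 71.4) in the second. Both P0 libraries had a peak in 674 members (60.2%, 57.3 to 63.1). The same held for 77.5% of all 8382 Otx2 regions of E14, so the members were below that background. Intervals of this kind cover the counting error of regions only, and regions of 1 library are not replicates of a stage.

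Each P0 library gave a lower share in members than in retained BCOR regions. The shares were 65.4% of members against 85.5% of retained BCOR regions in the first library, and 68.7% against 88.2% in the second. With a peak required in both libraries the shares were 60.2% and 82.9%, a difference of −22.6 percentage points (95% Newcombe interval −25.7 to −19.6). The SD between the 2 P0 libraries was 2.34 percentage points for the members' share alone. The difference of members minus retained BCOR regions was −20.1 points in the first P0 library and −19.5 in the second. The E14 lists that define both classes had no replicate, so their spread is unknown. A retained BCOR region also spans its later BCOR peak, so a later Otx2 peak that overlaps only that peak counts for it. Members hold no such peak, and how far this moves the differences at P0 and in the adult was not tested. Members also had P0 Otx2 less often than Otx2 regions of E14 without BCOR. The shares were 65.4% against 74.7% in the first library and 68.7% against 78.4% in the second, and 60.2% against 72.8% in both (difference −12.6, interval −16.0 to −9.20). That last difference was −6.36 points when the second P0 BCOR library was left out and both classes were formed anew. It was −5.95 points where, for both classes, a later BCOR peak counted only if in both libraries of a stage. With a peak of either P0 Otx2 library it was −6.40. The opposite held against BCOR regions of E14 alone without Otx2 at E14, where 60.2% of members and 20% of those regions had a peak in both P0 libraries (difference 40.3, interval 37.0 to 43.4).

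In the adult few members had an Otx2 peak, and the 2 libraries differed. The first adult library had a peak in 122 members (10.9%, 9.21 to 12.9) and the second, whose list is longer, in 298 (26.6%, 24.1 to 29.3), with an SD of 11.1 percentage points between them. Both had one in 116 members (10.4%, 8.71 to 12.3), against 27.9% of all Otx2 regions of E14. Retained BCOR regions reached 35.8% in the first library, 68.7% in the second and 35.6% in both. The difference of members minus retained BCOR regions was −24.9 points in the first library, −42.1 in the second and −25.2 in both (interval −27.4 to −22.9). Against Otx2 regions of E14 without BCOR the result hung on the first adult library. Members had 10.9% and those regions 21.2% there (difference −10.3, −12.7 to −7.75), while in the second library the shares were 26.6% and 28.6% (difference −2.01, −5.16 to 1.22). With both libraries required the difference was −9.47 points (−11.8 to −6.97). It was −5.39 points where, for both classes, a later BCOR peak counted only if in both libraries of a stage. With a peak of either adult library it was −2.85 (−6.02 to 0.414).

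**Figure D2:**
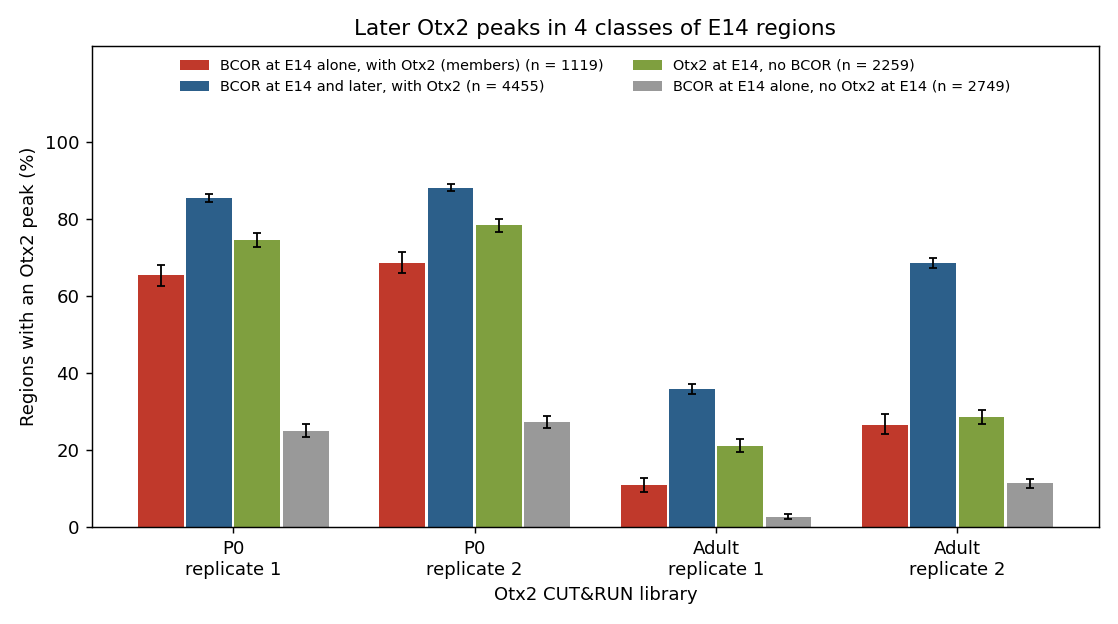
Share of regions (%) with an Otx2 peak in each of the 2 P0 and 2 adult libraries, for members, retained BCOR regions, Otx2 regions of E14 without BCOR, and BCOR regions of E14 alone without Otx2. Lines are 95% Wilson intervals for counting error of regions; in every library the members sit below the retained BCOR regions (65.4% against 85.5% in the first P0 library) and above BCOR regions without Otx2, while in the second adult library their interval overlaps that of Otx2 regions without BCOR.

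Taking the 4 later Otx2 lists together, the members showed several patterns. The commonest was a peak in both P0 libraries and in neither adult library, found in 435 members (38.9%, 36.1 to 41.8), against 31.0% of all Otx2 regions of E14. That share was 20.4% in retained BCOR regions (difference 18.4, 15.4 to 21.5) and 44.8% in Otx2 regions of E14 without BCOR (difference −5.97, −9.45 to −2.43). No later Otx2 peak at all was found in 267 members (23.9%, 21.5 to 26.4), against 12.0% of all Otx2 regions of E14. It was 6.51% in retained BCOR regions (difference 17.4, 14.8 to 20) and 18.7% in Otx2 regions without BCOR (difference 5.14, 2.21 to 8.15). A peak in all 4 later lists was found in 110 members (9.83%, 8.22 to 11.7), against 27.3% of all Otx2 regions of E14. It was 34.9% in retained BCOR regions and 19.5% in Otx2 regions without BCOR. The other 307 members had mixed combinations, of which 123 had both P0 libraries and the second adult library only. Adult peaks without any P0 peak were rare, with 23 members in the second adult library alone and 2 in both adult libraries.

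The medians of the E14 folds differed between these patterns, while their ranges overlapped. Members with no later Otx2 had a median BCOR fold of 5.21 and a median Otx2 fold of 5.25 at E14, and the Otx2 fold was the higher of the pair in 50.2% of them. Members with Otx2 in both P0 libraries and neither adult library had medians of 4.81 and 5.89, and the Otx2 fold was the higher in 73.3%. Members with all 4 later peaks had medians of 5.63 and 6.93, with the Otx2 fold higher in 71.8%. The folds of the 2 factors come from different libraries, so their ratio is a description within these lists. Regions were narrower without later Otx2, at a median of 420 bp, than with P0 Otx2 only (650 bp) or with all 4 lists (772 bp). Width is the span of all joined peaks, so a later peak can widen a region. The E14 peaks alone had medians of 369, 341 and 366 bp for BCOR and 276, 317 and 313 bp for Otx2 in the same order of patterns.

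Across the 1119 members the log2 folds of BCOR and Otx2 at E14 had a Pearson correlation of 0.66 and a Spearman correlation of 0.36, given as a description of regions that share 2 libraries. Among the 267 members without later Otx2 the values were 0.84 and 0.58, among the 110 with all 4 later peaks 0.79 and 0.55, and among the 435 with P0 peaks only 0.21 and 0.18. The last pattern held no member above a BCOR fold of 8.84, whereas the others reached 46.4 and 33.1.

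**Figure D3:**
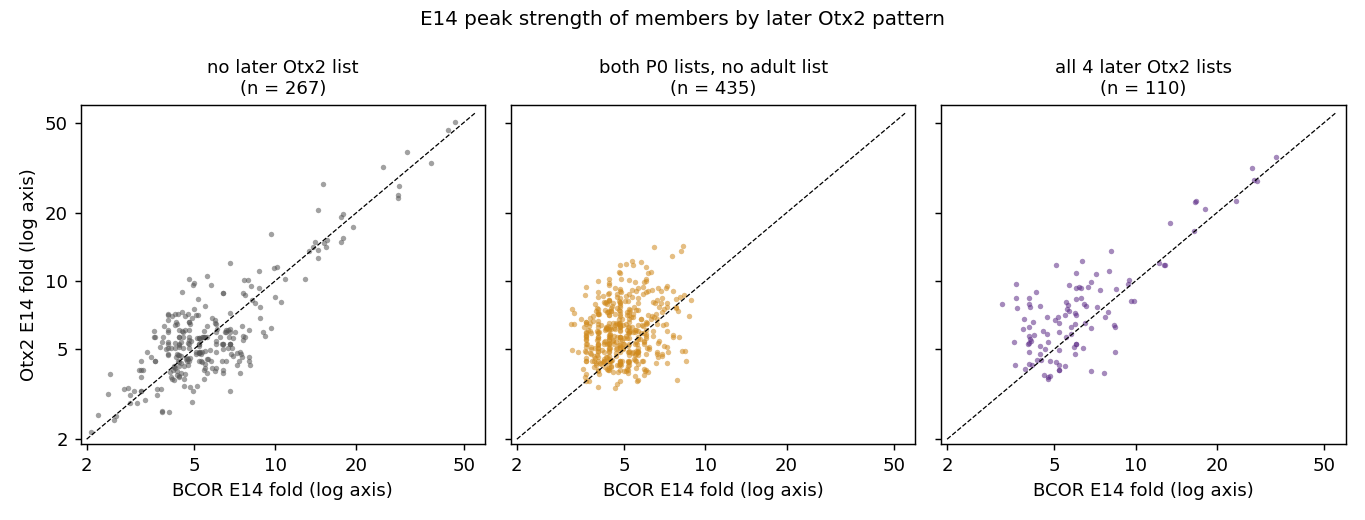
Fold of the E14 BCOR peak against fold of the E14 Otx2 peak (both log axes) for members with no later Otx2 peak, with peaks in both P0 libraries and neither adult library, and with peaks in all 4 later libraries; each point is a region and the dashed line marks equal folds. Points above a fold of 10 on both axes lie close to the line and occur in the first and last panels, with none among the 435 members of the middle panel.

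A stronger E14 Otx2 peak went with more frequent P0 peaks in members, but at each strength the members stayed below the other Otx2 classes. All Otx2 regions of E14 were split into 4 bins of equal size at folds of 4.83, 6.0 and 7.79. From the weakest to the strongest bin, 48.5%, 56.6%, 67.6% and 72.1% of members had Otx2 in both P0 libraries. The retained BCOR regions had 59.6%, 74.5%, 84.4% and 95.9%, and Otx2 regions without BCOR had 64.1%, 75.9%, 82.3% and 83.6%. In the strongest bin the intervals of members (65.9 to 77.5) and of Otx2 regions without BCOR (77.1 to 88.6) overlapped slightly. Averaged over the bins with the members' weights, the difference was −17.0 points from retained BCOR regions (−20.1 to −13.9) and −15.6 from Otx2 regions without BCOR (−18.9 to −12.2). With both adult libraries required, the corresponding differences were −19.1 (−21.2 to −16.7) and −10.6 (−13.2 to −7.85). They were not computed within bins for each adult library alone. Within 4 bins of BCOR fold made likewise, an alternative added after the data were seen, members differed from retained BCOR regions by −19.2 points at P0 and −18.0 in the adult.

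The share with no later Otx2 did not follow the same order through to the top. It was 33.6%, 23.2% and 15.8% (12 to 20.6) of members in the first 3 bins and 21.4% in the strongest (16.6 to 27.2). The intervals of the third and the strongest bin overlapped. In the strongest bin 49 of 229 members had no later Otx2 peak. That bin includes the 48 members with both E14 folds at or above 10, a bound set after the data were seen. Of those 48, 26 had no later Otx2 peak. Otx2 regions without BCOR had 25.9%, 15.5%, 10.3% (7.82 to 13.4) and 14.5% (9.84 to 20.8). Their last value was 23 of 159 regions, and its interval overlapped that of the third bin. In retained BCOR regions the share went on down, with 18.0%, 9.53%, 5.14% and 1.11%.

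**Figure D4:**
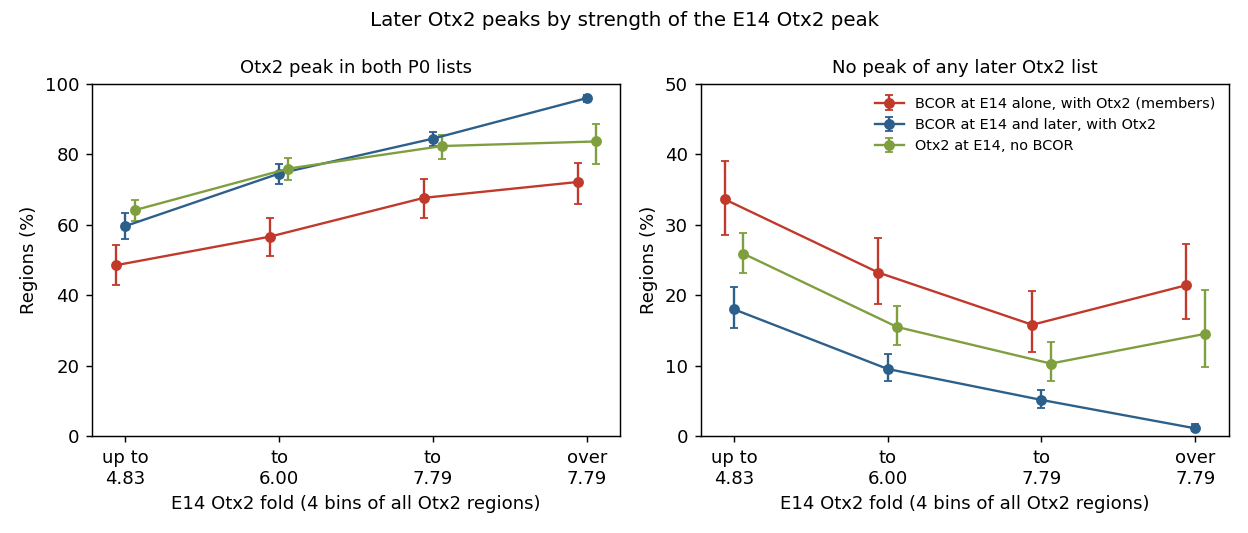
Share of regions (%) with Otx2 in both P0 libraries (left) and with no later Otx2 peak (right), by bin of the E14 Otx2 fold, for members, retained BCOR regions and Otx2 regions without BCOR, with 95% Wilson intervals for counting error of regions. Members are lowest on the left at every strength, and on the right they are at 21.4% in the strongest bin against 1.11% of retained BCOR regions and 14.5% of Otx2 regions without BCOR.

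Where Otx2 was counted as present later, its summit lay a median of 50 to 59.5 bp from the E14 summit. A later peak counted only within the same joined region, so short distances are partly set by that rule. The distance between the Otx2 summits of the first P0 library and of E14 had a median of 52 bp over 732 members, and 70.2% were within 100 bp. In the second P0 library the median was 53 bp over 769 members (71.0% within 100 bp). The first adult library gave 59.5 bp over 122 members (63.1%) and the second 50 bp over 298 members (70.1%). The 2 P0 libraries differed from each other by a median of 36 bp in the same members (83.1% within 100 bp), and the 2 adult libraries by 27 bp (81.9%). The median distances of E14 to later summits were 41 to 48 bp in retained BCOR regions and 60 to 78 bp in Otx2 regions without BCOR, so the members lay between the other classes.

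Among the peaks that were present at P0, those in members ranked in the upper part of the list without leading it. Their median P0 fold was 7.46 in the first library and 7.38 in the second, at the 59.7th and 59.2nd percentile of all Otx2 peaks of those lists. The peaks of retained BCOR regions stood at 69.4 and 69.1, those of Otx2 regions without BCOR at 80.6 and 81.6, and those of BCOR regions without E14 Otx2 at 40.6 and 42.8. Members with all 4 later peaks had median P0 folds of 9.36 and 9.59, against 7.71 and 8.28 in members with P0 peaks alone, and their ranges (3.43 to 56.2 and 2.50 to 79.8 in the first library) overlapped widely. High P0 folds were found in members with and without adult Otx2. The 3 members with the highest folds in both P0 libraries, chosen after their values were seen, were chr10:91888092-91889770, with P0 folds of 79.8 and 78.6, chr15:98628066-98629094, with 67.8 and 70.9, and chr5:125725362-125726598, with 56.2 and 70.8. Neither adult library had a peak in the first 2, and the third had adult folds of 14.7 and 26.8. Their E14 folds were 4.81, 4.19 and 3.6 for BCOR, below the list median of 5.38, and 7.96, 8.59 and 8.4 for Otx2, above the list median of 5.95. The highest adult folds, likewise picked by value, were at chr11:109158141-109159885, where the Otx2 folds were 59.7 and 130 in the adult libraries, 12.0 and 12.3 in the P0 libraries and 6.18 at E14. The BCOR fold there was 6.81 at E14 and the nearest later BCOR peak was 63499 bp away. The E14 BCOR and Otx2 summits lay 780 bp apart in that region and 809 bp apart at chr10:91888092-91889770, against a median of 67 bp over all members. At chr15:98628066-98629094 and chr5:125725362-125726598 they were 63 and 95 bp apart. Where summits lie far apart, a later Otx2 peak may itself have joined the E14 peaks, and this was not examined for single regions. Coordinates are those of the mouse build mm9, counted from 1, and genes at these positions were not analysed here because no annotation of that build was used.

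The 48 members with both E14 folds at or above 10, a bound set after the data were seen, stood apart from the other 1071. Their median region width was 320 bp, against 585 bp in the other members and 807 bp in the 261 retained BCOR regions above the same bound. These widths span all joined peaks, so they depend on later peaks, and every retained region holds a later BCOR peak by rule. The E14 BCOR and Otx2 summits of the 48 were a median of 7.5 bp apart, against 73 bp in the other members and 25 bp in the strong retained regions. No later Otx2 peak was present in 26 of the 48 (54.2%, 40.3 to 67.4), against 22.5% of the other members and 4 (1.53%) of the strong retained regions. Otx2 in both P0 libraries was present in 21 of the 48 (43.8%), against 61.0% of the other members. The order was the opposite in the adult, where both libraries had a peak in 14 of the 48 (29.2%), against 9.52% of the other members and 70.9% of the strong retained regions.

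The strongest single members were chosen by the worse of their ranks for the 2 E14 folds. At chr6:103599043-103599286, a region of 244 bp, BCOR had a fold of 46.4 and Otx2 of 50.1 at E14, with −log10 q-values of 7584 and 9335. At chr12:3109872-3110120, the folds were 43.8 and 46.5 with −log10 q-values of 8111 and 9904. The summits of BCOR and Otx2 were 2 bp apart in the first region and at the same base in the second. Neither region had a peak in any of the 8 later lists. The −log10 q-values of the next 4 members by this ranking were 131 to 381, so the q-values of these 2 regions stood far from those. Whether they lie in repeated sequence was not analysed here, and how far their folds reflect binding was not tested. The next were chr8:15519787-15520098 (BCOR 33.1, Otx2 35.3), chr4:64158768-64159096 (37.8 and 33.3) and chr8:86280675-86280885 (30.8 and 37.1). The chromosome 4 region and the last one also had no later peak.

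Other strong members had Otx2 peaks in all 4 later lists, with folds on either side of the list medians, which were 6.36 and 6.49 for the P0 lists and 7.40 and 8.88 for the adult lists. At chr8:15519787-15520098 the Otx2 fold of 35.3 at E14 stood beside later folds of 3.9 and 3.87 in the P0 libraries and of 3.08 and 5.98 in the adult ones, all below those medians. At chr5:147072566-147072938 the E14 folds were 28.2 for BCOR and 27.6 for Otx2, and the later Otx2 folds were 4.02 and 3.35 in the P0 libraries and 2.41 and 5.09 in the adult ones, again all below. At chr1:102076693-102076968 the E14 folds were 27.4 for BCOR and 28.0 for Otx2, and the later Otx2 folds were 13.8 and 9.22 in the P0 libraries and 6.26 and 13.8 in the adult ones, above the medians in all but the first adult library. Folds of different libraries depend on depth and background and are set side by side only. The strongest members without later Otx2 beyond those named were chr2:57481900-57482138 (BCOR 25.1, Otx2 31.9) and chr14:9119159-9119399 (28.7 and 26.3), with summits 37 and 1 bp apart.

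Most members had no other member nearby. With 50 kb as the largest gap, 983 (87.8%) had no other member beside them, 94 were in pairs and 15 in runs of 3. Only other members were counted, and no such shares are given for the other classes. The values therefore describe the spacing of members and do not set them apart. The remaining 27 (2.41%) formed 4 runs of 4 or more, and all 27 had no later Otx2 peak, against 240 (22.0%) of the 1092 members outside runs. The longest run, chr5:14899982-15062545, held 11 members in 162564 bp. Its members had BCOR folds of 2.40 to 5.72 and Otx2 folds of 2.63 to 6.30, with medians of 3.29 and 3.25, against medians of 5.38 and 5.95 over the whole lists. Across it the E14 lists had 23 BCOR and 17 Otx2 peaks, while the 8 later lists had 2 peaks in all, 1 in each P0 Otx2 library. A second run on the same chromosome, chr5:15177016-15209473, held 6 members with 16 E14 peaks. The run at chr2:181652067-181665681 held 6 members with 12 E14 peaks, and the run at chr8:56200337-56208861 held 4 members with 9. None of these 3 runs had a peak in a later list.

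**Figure D5:**
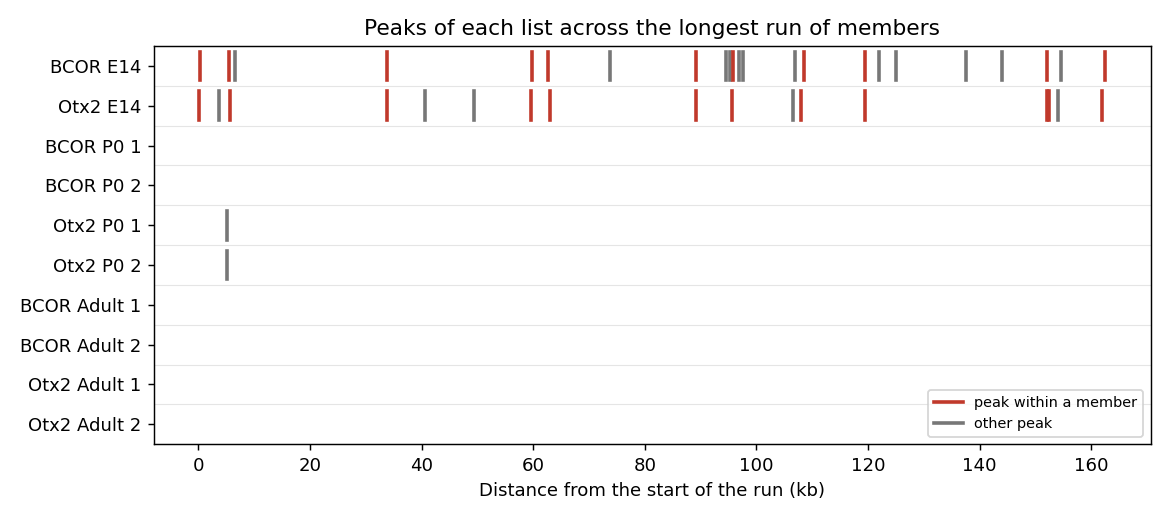
Positions of the peaks of all 10 lists across the longest run of members, as distance in kb from its start; each line is a peak, in red where it lies in a member. The E14 lists have 23 BCOR and 17 Otx2 peaks there, and the later lists have 1 peak in each P0 Otx2 library.

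Members were spread over all 19 chromosomes. They made up between 14.1% (chromosome 15) and 24.7% (chromosomes 3 and 5) of the regions with both E14 peaks on a chromosome. The Wilson intervals of these extremes, 9.97 to 19.7, 20.3 to 29.7 and 20.7 to 29.3, did not overlap between chromosome 15 and the other 2, which were picked as the extremes of 19. The 96 members of chromosome 5 include its runs of 11 and of 6 members. These intervals take regions as independent, and shares without the runs were not computed.

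Few members lay near a later BCOR peak, in shares close to those of Otx2 regions without BCOR. The rule itself left out every region that holds such a peak. The nearest later BCOR peak was a median of 64221 bp away from a member, and 39 to 2881917 bp over all of them. It lay within 1 kb of 23 members (2.06%) and within 10 kb of 127 (11.3%). Otx2 regions without BCOR had a median of 72803 bp, with 2.04% within 1 kb and 11.2% within 10 kb. BCOR regions of E14 alone without Otx2 had a median of 64863 bp, with 5.78% and 14.7%. The members closest to the edge of the rule were chr11:52045245-52045540, with a later BCOR peak 39 bp away and E14 folds of 4.74 for BCOR and 7.12 for Otx2, and chr17:17963802-17964259, at 205 bp with folds of 4.58 and 3.45. Neither had a later Otx2 peak. The third, chr8:122751724-122752450, lay 222 bp from a later BCOR peak and had E14 folds of 4.32 and 4.47, and Otx2 folds of 12.5 and 13.0 in the P0 libraries and of 13.3 and 23.5 in the adult ones. Just outside, chr10:39977536-39979088 and chr14:55544822-55545732 each had a later BCOR peak that overlapped an E14 peak by 1 bp. In the first it was in the first P0 library with a fold of 3.69, and in the second it was in the second P0 library with a fold of 4.95.

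The class of retained BCOR regions rests in part on a single library. Of its 4455 regions, 1275 (28.6%) had a later BCOR peak in 1 list alone, and for 1155 of these (25.9% of the class) that list was the second P0 BCOR library. Of the 2277 regions that would be members without that library, 68.1% had Otx2 in both P0 libraries, against 60.2% of the 1119 members. With both classes formed anew without that library, the difference from the retained BCOR regions was −17.3 points at P0, against −22.6 with all lists. In the adult it was −29.7, against −25.2. Members were thus below retained BCOR regions with or without that library.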

How the data were processed

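CUT&RUN for BCOR and Otx2 was run on retinas of WT CD1 mice, and samples were grouped by their labels. The authors deposited 1 peak list for each library. The submitters' processing notes name Bowtie2, MACS2, deepTools and other tools and the builds mm10 and mm9, without roles, and the columns are those that MACS2 writes. Neither the control sample nor the calling threshold is given in the sources used here. Deposited rows give a peak's fold, that is the ratio of its signal to background, its −log10 p-value and −log10 q-value, and the place of its summit. These were used as the authors' values within a list. A peak on chromosome 1 ended at base 197068071, beyond the last gene of GRCm38.p6 there (195291439), and the coordinates were taken as mm9. No mm9 genome or annotation was used here, so sequences, genes, promoters and motifs of the regions were not analysed here, and the RNA tables of the Bcor knockdown were not used.

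Peaks were joined in Python 3.11.15 with pandas 2.3.3 and numpy 2.4.6 where they shared at least 1 base. The procedure was tested on simulated peaks with known answers. Simulated peaks of a region all covered a common base, so joining through an intermediate peak was not tried there. A region had later Otx2 at a stage where both libraries of that stage had a peak in it. Where a region held several peaks of a list, the one with the highest fold was used. Shares carry 95% Wilson intervals and differences 95% Newcombe intervals, computed with scipy 1.17.1. With 1 library per factor at E14 no test over samples was possible, and no p-values are given. Single regions were named by the worse of their ranks for the 2 E14 folds, within all members, those with all 4 and those with no later Otx2 peak; by closeness to the edge of the rule; and by the longest run. The members, classes and lists were chosen with earlier results of these data known. Other overlap, threshold and replicate rules were tried as alternatives.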

Additional observations from a re-analysis of the deposited data

How the results depend on the processing

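Of 66 values of the 4 differences in later Otx2 under alternative settings, 64 kept their direction and an interval that excludes 0. The exceptions were members minus Otx2 regions without BCOR in the adult, at −2.85 points with a peak of either adult library counted and −2.01 without the first adult library, so that leaving out 1 adult library each gave −10.3 to −2.01. The difference from retained BCOR regions ran from −23.1 to −16.7 points at P0 and from −42.1 to −18.0 in the adult, and that from Otx2 regions without BCOR from −15.6 to −5.95 at P0 and from −10.6 to −2.01 in the adult. The number of members was 704 with E14 summits within 100 bp and 2556 where later BCOR had to be in both libraries of a stage, and it ran from 1126 to 2277 without 1 later BCOR library each. The share of members with P0 Otx2 was 69.2% where later BCOR had to be in both libraries and 73.9% with either P0 library, and ran from 60.2 to 68.7% without 1 library each. The adult share was 27.2% with either adult library and ran from 10.7 to 26.6% without 1 library each. Leaving out members in runs, or all regions with E14 folds of 10 or more, was added after the data were seen and kept each difference. Read depth is unknown, and E14 had no replicate. No paired analysis was possible because the results come from peak lists without a test over samples, and E14 had 1 library per factor. The causes of these shifts were not tested.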
